A study of Mus musculus with 6 samples.

Results

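The nuclei described here are a class of enteric neurons of the mouse colon marked by Penk and Tac1 and labelled excitatory motor neurons. They were chosen by their own expression: a nucleus was kept if it had 300 genes or more and no more than 5% of its unique molecular identifiers (UMIs, the count of distinct captured transcripts) from mitochondrial genes, and was called a neuron with at least 3 UMIs over Elavl4, Snap25, Syt1, Celf4, Rbfox3, Snhg11 and Ret. It entered the class when the UMI sum of 5 genes, Penk, Tac1, Bnc2, Oprk1 and Satb1 (list C), was at least 2 and larger than each of 3 other sums, those of the Vip and Gal list (A), the Nos1 list (B) and the Nmu list (D). This rule gave 212 nuclei of 603 neurons, from 3461 kept nuclei and 11040 barcodes. The other 391 neurons were led by list A (89 nuclei), list B (165) or list D (47), or were unassigned (90). All values that chose the nuclei are given as descriptions, without a test.

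The 6 libraries held nuclei of the enteric nervous system of wild-type C57BL/6J mice, sorted by the DNA stain DAPI and the INTACT tag, which marks nuclei for isolation and whose driver line is not given in the sources used here. The series' text names total colon as the tissue of the Stress and Control mice. Control mice gave 2 libraries, mice under restraint stress on each of 7 days gave 3 (Stress), and mice injected with dexamethasone, a synthetic glucocorticoid, for 7 days gave 1. The labels give no age, sex or number of animals per library, so the spread between libraries may be in part technical. The single Dexamethasone library was also counted with another version of Cell Ranger, and that version and the treatment cannot be told apart.

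Excitatory motor neurons of the gut wall release acetylcholine and the tachykinin substance P, encoded by Tac1, onto smooth muscle and contract it. Penk encodes the precursor of the enkephalins, opioid peptides that act on mu and delta opioid receptors and slow transit. Acetylcholine is made by choline acetyltransferase (Chat), from choline taken up by the transporter Slc5a7, and is loaded into vesicles by Slc18a3.

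Control 1 and 2 gave 50 and 21 nuclei of the class, Stress 1, 2 and 3 gave 13, 46 and 44, and the Dexamethasone library gave 38. Their summed depth ran from 121494 UMIs in Stress 1 to 546084 in Stress 3, and the median nucleus had 4696 UMIs. A single nucleus supplied 36.8% of the class UMIs in Stress 1 and 18.6% in the Dexamethasone library, against 9.67% to 16.8% elsewhere. Across the 15 pairs of libraries 17 barcodes were shared, none of them in the class, and the doublet caller marked 4 of the 212 nuclei.

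The class was led by Bnc2 and Tac1 more often than by Penk. Bnc2, a zinc finger protein gene, was found in 180 nuclei (84.9%), Tac1 in 136 (64.2%) and Penk in 85 (40.1%), while Oprk1, the kappa opioid receptor, and Satb1, a chromatin organiser, were each found in 72. Penk was largely nested in Tac1: 77 nuclei had both, 59 had Tac1 without Penk, 8 had Penk without Tac1, and 68 had neither and entered through the other 3 genes. In 104 nuclei most list C UMIs came from Bnc2, in 72 from Tac1 and in 13 from Penk. The median depth was 8684 UMIs in nuclei with both peptides, 5058 with Tac1 alone, 2555.5 with Penk alone and 3860.5 with neither. Among 2858 non-neuronal nuclei, with a median of 2299 UMIs, Penk was found in 4.13% and Tac1 in 6.09%. Bnc2 stood at 199 CPM in the non-neuronal nuclei (16.5% of them) and 36.1 CPM in the other neurons (14.1%, median 4388 UMIs). Satb1 stood at 104 CPM in the non-neuronal nuclei, against 87.3 in the class and 16.9 in the other neurons.

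At the edge of the rule, 23 members had exactly 2 list C UMIs, while 19 neurons stayed outside with list C leading at 1 UMI. Members that led by a single UMI numbered 11, and 5 neurons were excluded by a tie. Outside the neuron gate, 429 kept nuclei had a leading list C sum of at least 2, and 26 of those had 2 neuron-gene UMIs; inside it, 11 members had exactly 3.

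Penk lies on chromosome 4 (4133531 to 4138819, minus strand) and Tac1 on chromosome 6 (7554879 to 7565834, plus strand) in GENCODE M21 on GRCm38, the mouse build that matches the mm10 named by the submitters. The RefSeq windows used here held no entry for Penk, so the bases before the start are shown for Tac1 only. The capitals mark partial sites of the cyclic AMP response element (TGACG, or CGTCA on the other strand). The Tac1 start of GENCODE M21 falls inside this window, upstream of the RefSeq start. The RefSeq window on GRCm38.p6 is chr6:7554811-7555060, plus strand, 250 bases that end 1 base before the annotated start.
Tac1: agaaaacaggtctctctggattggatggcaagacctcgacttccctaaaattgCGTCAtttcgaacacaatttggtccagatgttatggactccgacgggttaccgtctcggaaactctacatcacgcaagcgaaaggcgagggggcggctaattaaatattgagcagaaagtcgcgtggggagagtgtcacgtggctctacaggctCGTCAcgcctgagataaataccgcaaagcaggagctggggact
Both partial sites read CGTCA on the printed strand, at positions -197 and -43 from the start. At least 1 such partial site was present in 17.8% of the 32851 RefSeq windows of this length, so the match describes these letters and nothing more.

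The label was checked against genes that the rule did not use. Chat was found in 121 members (57.1%) at 204 CPM (UMIs per 1000000 UMIs of the nuclei concerned), against 35.2 CPM in the other neurons and 1.71 in non-neuronal nuclei. By library its level in the class was 210 and 279 CPM in Control, 206, 235 and 183 under restraint and 163 with dexamethasone. Every class value lay above all values of the other neurons, which ran from 26.8 to 51.5. Those neurons pool 89 led by list A, 165 by list B, 47 by list D and 90 unassigned. The comparison therefore cannot tell excitatory motor neurons from other cholinergic neurons.

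Slc5a7 was found in 103 members at 272 CPM, against 76.4 in the other neurons, and 148 members (69.8%) had a UMI of Chat or Slc5a7. Slc18a3 had 0 UMIs in all 11040 barcodes; the gene lies inside Chat on the same strand (chromosome 14, 32462438 to 32464850), so its 0 says nothing of these nuclei. Casz1, a transcription factor gene, was at 470 CPM against 90.5, and Gfra2, the neurturin receptor, at 223 against 31.7. Casz1 was also at 208 CPM in non-neuronal nuclei. In 31 members the marker UMIs of another cell type were at or above the neuron-gene UMIs. Pooled, these had Chat at 21.4 CPM and Slc5a7 at 38.6, below the other neurons, with Casz1 at 159 and Gfra2 at 55.7, above them. The remaining 181 had 230, 305, 514 and 246 CPM. The 50 members with 3 to 9 neuron-gene UMIs had Chat at 31.1 CPM and Slc5a7 at 149.5.

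Nos1, the neuronal nitric oxide synthase, was at 33.7 CPM in the class and 1699 in the other neurons, and Vip at 56.8 and 952, though both belong to lists the rule used. Outside the rule, Etv1 was at 37.9 against 662 CPM, and Ass1, which regenerates arginine for nitric oxide synthesis, at 139 against 445. The list of nitrergic transmission as a whole went both ways: of 10 measured genes 3 were lower in all 6 libraries (Ass1, Asl and Gucy1a2) and 3 higher (Pde5a, Gch1 and Prkg1), with a median log2 ratio of 0.34. The sensory markers Calca, Cckar, Dlx3 and Nog had 1 to 3 UMIs each in the whole class, and Calcb was at 28.4 CPM.

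Sst, the somatostatin gene and an interneuron marker, was high in a few members. It had 1574 UMIs in 50 members, or 828 CPM, against 122 in the other neurons. Of those UMIs 95.0% came from 13 nuclei with at least 10 Sst UMIs each. Control 1 and 2 held 4 and 1 of them, Stress 2 and 3 held 3 and 5, and Stress 1 and Dexamethasone held none. These 13 nuclei carried Bnc2 in all 13, Chat in 11, Gfra2 in 11 and Calb2, the calretinin gene, in 12, but Tac1 in 8 and Penk in 6. Their Calb2 level was 511 CPM, and their Gfra2 level was 548 CPM against 223 in the whole class.

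The 68 members without Penk and Tac1 had summed smooth muscle markers at 3032 CPM and epithelial markers at 1324, against 685 and 649 in the 144 members with either peptide, while enteric glia markers stood at 618 against 643. The part of that RNA in the following values was not tested. Chat was at 239 CPM in them and 206 in nuclei with both peptides, while Slc5a7 was at 91.1 against 372 and Gfra2 at 393 against 164. Oprm1, the mu opioid receptor, was at 54.1 CPM without the peptides and 386 with both. The netrin receptor gene Unc5d was at 726 against 2306, and Gda, a guanine deaminase gene, at 42.7 against 313. Because Penk and Tac1 UMIs defined these groups and depth differed between them, these values carry no test.

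**Figure D1:**
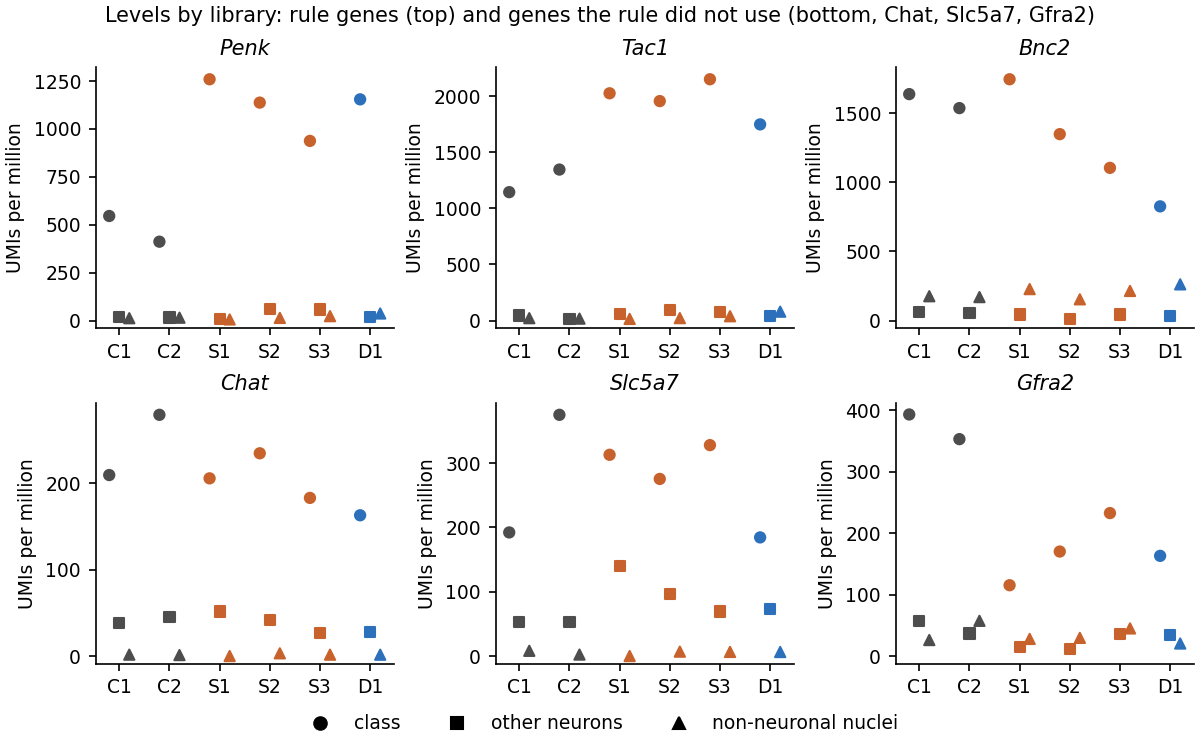
CPM of the nuclei in each library (C, Control; S, Stress; D, Dexamethasone) for 3 rule genes and for Chat, Slc5a7 and Gfra2, which the rule did not use; circles are the class, squares the other neurons and triangles non-neuronal nuclei. Class values of Chat run from 163 to 279 CPM, above the other neurons in every library, and the Gfra2 circles of both Control libraries stand above those of the other libraries, with 39 of the 90 UMIs of Control 1 from 1 nucleus.

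Across all genes, 430 of 8624 measured genes (4.99%) were higher and 530 (6.15%) lower in the class than in the other neurons in all 6 libraries, rule genes left out. This contrast is the one the rule made, so it is described and not tested, as the mean log2 ratio of CPM (25 added to each) with its SD over 6 libraries. Unc5d was furthest above (3.59 ± 0.85; 1709 against 132 CPM pooled). Grik1, a kainate receptor subunit, followed (3.08 ± 0.44; 1448 against 146 CPM). Next in order were Olfm3 (2.89 ± 0.74), Nxph1, which encodes a neurexin ligand (2.88 ± 1.00), and Pld5 (2.83 ± 0.27; 462 against 45.1 CPM). Kctd8 (2.60 ± 0.78) and Kctd16 (2.58 ± 1.04), auxiliary subunits of GABA-B receptors, and Lrp1b (2.60 ± 0.27) came after them. The metabotropic glutamate receptor Grm7 reached 2606 CPM in the class (2.37 ± 0.51), and the transcription factor Tox 969.5 (2.24 ± 0.53).

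The genes furthest below were Dgkb, a diacylglycerol kinase (-4.69 ± 1.04; 57.3 against 1542 CPM), and Mgat4c (-3.77 ± 0.75). Etv1 followed (-3.68 ± 0.43). The neurotrophin-3 receptor Ntrk3 was at -3.16 ± 0.95, and the extracellular matrix gene Tnr at -2.86 ± 1.01. With each nucleus thinned to 1000 UMIs, 179 genes were higher and 228 lower in all 6 libraries, and 9 of the 15 genes named furthest above and 8 of the 10 furthest below were again among those furthest out.

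By gene list, 4 of 7 measured genes of cholinergic transmission were higher in all libraries and none lower: Chat (1.90 ± 0.18), Slc5a7 (1.53 ± 0.51), and Prima1 and Colq, which anchor acetylcholinesterase. Axon guidance genes were higher in 8 of 30 and lower in 1, with Unc5d and Slit1 (1.29 ± 0.19) above and Robo2 (-2.28 ± 0.60) below. Glutamate and GABA receptors were higher in 6 of 24, among them Grm8 and Grik2, and lower in 2.

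Receptors and ligands of neurotrophic factors went lower more often than higher, 7 of 13 against 3. Gfra2 (2.15 ± 0.37), the neurotrophin receptor Ntrk2 (2.05 ± 0.50) and the neuregulin receptor Erbb4 (1.45 ± 0.64) were above, while Gfra1, the co-receptor for glial cell line-derived factor (-2.75 ± 1.18), Ntrk3 and Ngfr (-1.34 ± 0.59) were below. Among transcription factors of enteric neurons, Casz1 (2.15 ± 0.22), Meis1 and Ebf3 were among 5 of 21 above, and Etv1, Ebf1 (-2.04 ± 0.88), Tbx3 and Zfhx3 were the 4 below. Oprm1 was higher in the class (1.03 ± 0.62), and Tacr1, the substance P receptor, lower (-0.91 ± 0.45). Of 20 measured glucocorticoid receptor targets 0 were higher in all libraries and 2, Sgk1 and Mt1, lower, counts close to the 4.99% and 6.15% of all genes.

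**Figure D2:**
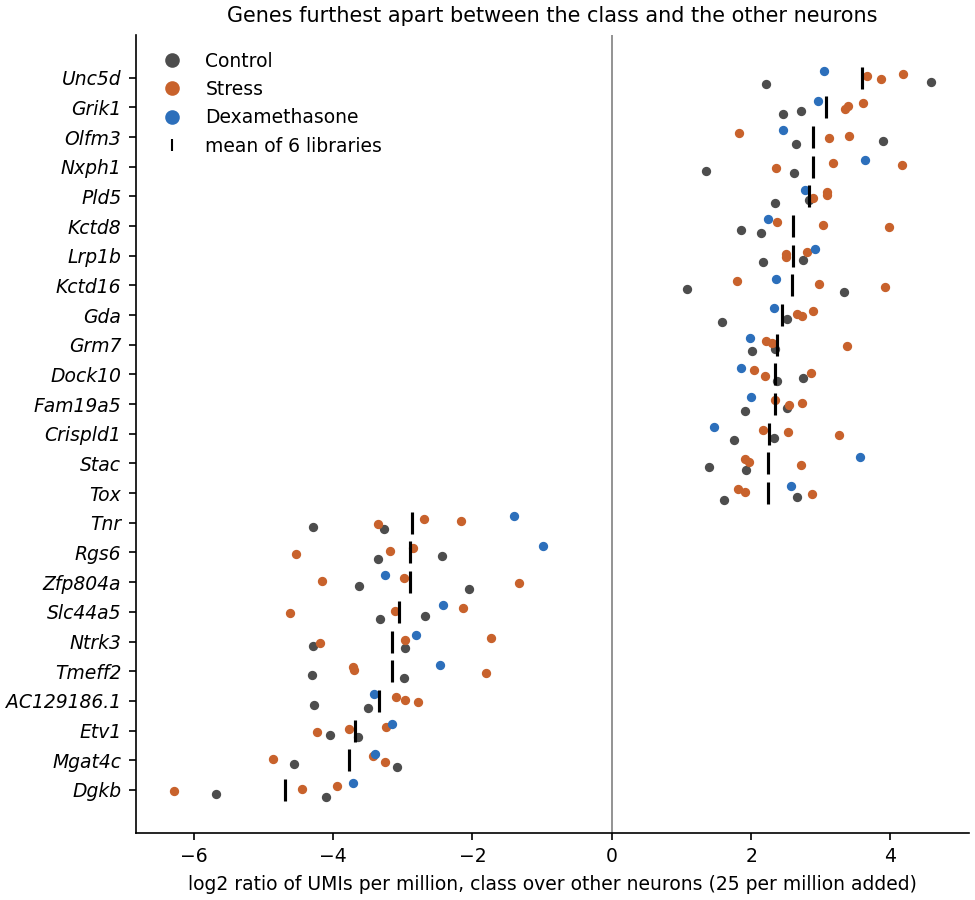
Log2 ratio of CPM between the class and the other neurons (25 CPM added) for the 15 genes furthest above and the 10 furthest below; each point is 1 library and the black tick is the mean of 6. All points of a gene lie on 1 side of 0, as the choice of these genes requires, and means run from -4.69 for Dgkb to 3.59 for Unc5d.

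The first comparison between groups was the share of the class among neurons. It was 30.9% (95% exact binomial interval 23.9 to 38.6) and 30.0% (19.6 to 42.1) in Control 1 and 2. In Stress 1, 2 and 3 it was 35.1% (20.2 to 52.5), 38.3% (29.6 to 47.6) and 34.9% (26.6 to 43.9). The Stress libraries lay above both Control libraries, a mean of 36.1% ± 1.91 (SD, n = 3) against 30.4% ± 0.611 (SD, n = 2), but the intervals of single libraries, which cover counting error only, overlapped. The difference of 5.70 percentage points had a two-sided exact permutation p of 0.2, the smallest that 2 against 3 libraries allow.

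With nuclei thinned to 1000 UMIs the difference was 2.82 points (exact permutation p = 0.4). The share in the Dexamethasone library was 43.2% (32.7 to 54.2). With nuclei thinned to 1000 UMIs it was 32.4% (17.4 to 50.5), against 24.4% to 30.0% in the other libraries. These are shares of sorted neuronal nuclei, in which fewer nuclei of a class and less RNA per nucleus cannot be told apart.

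**Figure D3:**
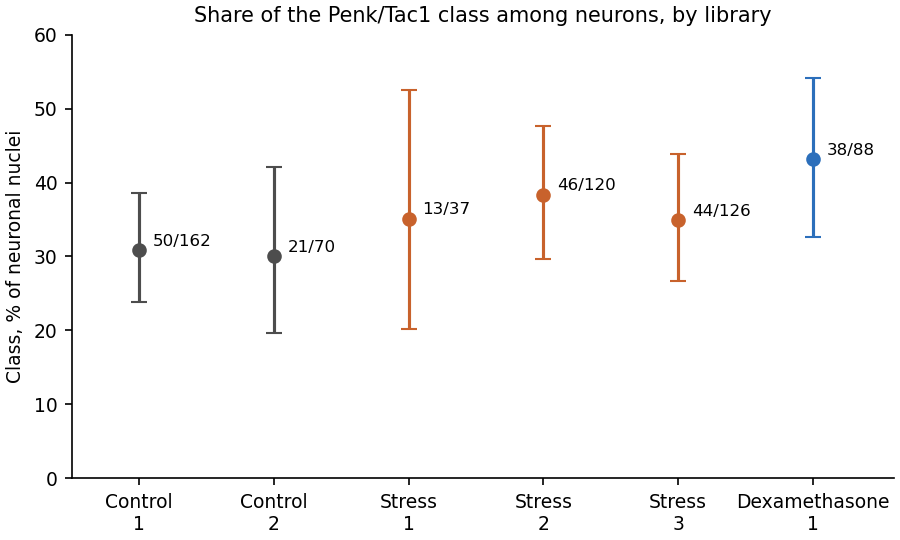
Share of the class among neuronal nuclei in each library, in percent, with exact 95% binomial intervals and the counts behind each share. Stress shares of 34.9% to 38.3% lie above the Control shares of 30.0% and 30.9%, with overlapping intervals.

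Penk and Tac1 chose the nuclei and are described by library without a test. Penk stood at 546 and 412 CPM in Control, 1259, 1137 and 938 under restraint and 1154 with dexamethasone. Tac1 stood at 1144 and 1345 in the controls, 2025, 1955 and 2150 under restraint and 1748 with dexamethasone. For both genes the Control libraries were the 2 lowest and did not overlap the others. The share of members with a Penk UMI was 28.0% and 23.8% in Control, 23.1%, 32.6% and 50% under restraint and 68.4% with dexamethasone, so in Stress 1 the higher level came with no higher share. In that library 1 nucleus held 79 of the 153 Penk UMIs and 133 of the 246 Tac1 UMIs. Bnc2 stood at 1637 and 1536 in the controls, 1745, 1348 and 1104 under restraint and 826 with dexamethasone. It was found in 17 of the 38 Dexamethasone members, against 49 of 50 and 19 of 21 in Control. Many Dexamethasone members with Penk were shallow and had no Bnc2 UMI. Among them were nuclei of 599, 613 and 628 UMIs, with 8, 14 and 17 Penk UMIs and 4 neuron-gene UMIs each. The part of such nuclei in the 68.4% was not tested.

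Restraint stress was then compared with Control gene by gene, on UMIs summed per library over the class. No gene passed: 0 of 4509 (0%) had an adjusted p under 0.05 in edgeR's quasi-likelihood test with Benjamini-Hochberg adjustment, the smallest being 0.863, while 219 had an unadjusted p under 0.05. DESeq2 also called 0 genes, with 91 at an unadjusted p under 0.05. The genes of smallest p are given as values. All of the edgeR adjusted p-values in the next paragraphs on stress are 0.863 unless stated.

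Nfatc1, a calcineurin-regulated transcription factor, had the log2 fold change 2.20 ± 0.53 (SE): its level was 26.2 and 14.7 CPM in Control and 156, 78.9 and 101 under restraint, with no overlap. Gda had 1.44 ± 0.37, from 87.3 and 118 CPM in Control and 387, 259 and 222 under restraint. Both stood higher in every Stress library, but in Stress 1 a single nucleus gave 10 of the 19 Nfatc1 UMIs and 29 of the 47 Gda UMIs. Med27, a Mediator subunit (2.30 ± 0.56), Plcb1, a phospholipase C (1.65 ± 0.46), and Kcnip1, an accessory protein of A-type potassium channels (1.35 ± 0.36), completed the higher genes.

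Among the lower genes was Gfra2, at 393 and 353 CPM in Control and 115, 170 and 233 under restraint, a log2 fold change of -1.10 ± 0.28. In Control 1 a single nucleus gave 39 of the 90 Gfra2 UMIs, and without the deepest nucleus of each library the value was -0.63 ± 0.25 (edgeR adjusted p = 0.849). Ctnna1, alpha-catenin, had -1.01 ± 0.26 and Fbxw24, one of a family of near-identical F-box genes whose reads may be split between copies, -2.14 ± 0.51. The other 2, Phgr1 (-1.72 ± 0.39) and Zg16 (-1.99 ± 0.49), are epithelial genes. Beside them, all 10 tested epithelial markers had values below 0 with a median log2 fold change of -1.08, and their sum in the class was 1358 and 948 CPM in Control and 189, 852 and 467 under restraint, so that the groups did not overlap. The part of epithelial RNA in these 2 genes was not tested.

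No gene of cholinergic transmission or opioid reception passed in Stress. Chat had -0.26 ± 0.27 (edgeR adjusted p = 0.920) and Slc5a7 0.10 ± 0.31 (0.980), and the cholinergic list had a median of 0.29 over 6 tested genes. Oprm1 had 0.56 ± 0.43 (edgeR adjusted p = 0.895), and 103 of its 250 UMIs in Stress 2 came from 1 nucleus. The median over all tested genes was -0.003. Of 5 tested glucocorticoid receptor targets 4 lay above 0, with a median of 0.71, beside 2242 of all 4509 genes above 0. With 10 or more neuron-gene UMIs the targets' median was 0.29 over 3 tested genes. It was 0.12 over 3 in nuclei whose neuron-gene UMIs exceeded the marker UMIs of each of 8 other cell types. Among the corticosteroid genes the receptor itself, Nr3c1, had 0.35 ± 0.56 (edgeR adjusted p = 0.949), and its levels of 16.5 to 107 CPM in Stress spanned the 52.4 and 51.5 of Control. The clock gene Arntl had -1.21 ± 0.46 (edgeR adjusted p = 0.863), and the immediate early gene Fos -0.06 ± 0.48 (0.988).

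The stress effect in the class was compared with that in the other neurons in 1 fit that blocked on the library. Of 6940 genes, 2 (0.0288%) had a difference at an edgeR adjusted p of 0.0214 each, Tph1 and Lmx1a. Both are genes of serotonin-producing enterochromaffin cells, Tph1 being the rate-limiting enzyme of peripheral serotonin synthesis. In the class Tph1 had 0 and 8 UMIs in Control and 0, 19 and 37 under restraint, and in the other neurons 75 and 32 in the controls and 0, 1 and 0 under restraint. All of it rested on few nuclei: 5 members held the 101 Tph1 UMIs of the class, 1 of them in Control 2, 2 in Stress 2, 1 in Stress 3 and 1 with dexamethasone, and 6 other neurons held the rest.

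The 4 Tph1 nuclei of Control and Stress entered the class with 2 to 5 Tac1 UMIs and no Penk, Bnc2, Chat or Slc5a7 UMI. Each of the 4 also had UMIs of Chga, Chgb, Ddc and Slc18a1. None of the 6 Tph1 nuclei outside the class had a Tac1 UMI. In the other neurons alone, 33 of 7058 genes (0.468%) passed for Stress against Control, 25 higher (0.354%) and 8 lower (0.113%). Chat, Gfra2, Oprm1 and Fos were among the genes with no call in the test of the difference, at edgeR adjusted p-values of 0.996 or more.

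Dexamethasone against Control called 157 of 6892 genes (2.28%), 147 higher and 10 lower (2.13% and 0.145%; edgeR, the single library assumed to vary like the others). Of 10 tested smooth muscle markers 9 passed. With Stress and Control alone 2 of the 10 passed the filter on low counts, so the others were tested only with the library where they were high, and the count supports nothing by itself. Likewise 3 enteric glia markers, 3 genes of the cytokine and NF-kB list and 10 of the TGF-beta pathway could be tested without that library, against 5, 8 and 17 with it. Myh11, the smooth muscle myosin heavy chain, had 4 and 0 UMIs in Control, 1, 45 and 96 under restraint and 542 with dexamethasone (log2 fold change 7.00 ± 0.86, edgeR adjusted p = 0.00208), and 1 nucleus gave 266 of the 542. The summed smooth muscle markers stood at 153 and 169 CPM in Control, 74.1 to 652 under restraint and 4006 with dexamethasone (10 of 10 markers present), where the non-neuronal nuclei of that library stood at 2819.

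Of 5 tested enteric glia markers 2 passed, Gfap and Slc35f1. Gfap, the glial filament gene, had 0 UMIs in both Control libraries and 76 with dexamethasone, at least 24.7-fold higher with a floor of 3 counts over the Control group. With 0, 0 and 2 UMIs under restraint, Gfap entered the test only through the library where it was high, so its call supports nothing by itself. The summed glia markers, 13 of 14 present, were at 249 and 95.6 CPM in Control, 140 to 681 under restraint and 1815 with dexamethasone. Slc1a3, a glutamate transporter of glia, had 0 UMIs in Control and 35 with dexamethasone, 28 of them in 1 nucleus.

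The pooled levels of these markers were higher in nuclei with few neuron-gene UMIs, though not in each such nucleus. Of the 50 members with 3 to 9 neuron-gene UMIs, 20 were among the 38 of the Dexamethasone library. In those 20 the largest marker sum of another cell type ran from 1 to 232 UMIs. Those 50 nuclei had a pooled smooth muscle sum of 5774 CPM and a glia sum of 3694, against 689 and 357 in the 162 with 10 or more. The deepest Dexamethasone nucleus, of 69520 UMIs, was among the 162. It had 691 smooth muscle UMIs against 62 neuron-gene UMIs, 1 Tac1 UMI, 27 Bnc2 UMIs and no Penk, Chat or Slc5a7 UMI.

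In alternatives added after seeing the data, the count of calls was 99 without the deepest nucleus of each library, 103 among nuclei with a Penk or Tac1 UMI, and 51 with at least 10 neuron-gene UMIs. It was 5 among the 181 nuclei whose neuron-gene UMIs exceeded the marker UMIs of each of 8 other cell types, a gate that removes smooth muscle and glia UMIs by its own construction and 11 of the 38 Dexamethasone nuclei. Leaving out Control 1 gave 12 calls and leaving out Control 2 gave 32, against 157. The part of smooth muscle and glial RNA in the single genes called was not tested.

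**Figure D4:**
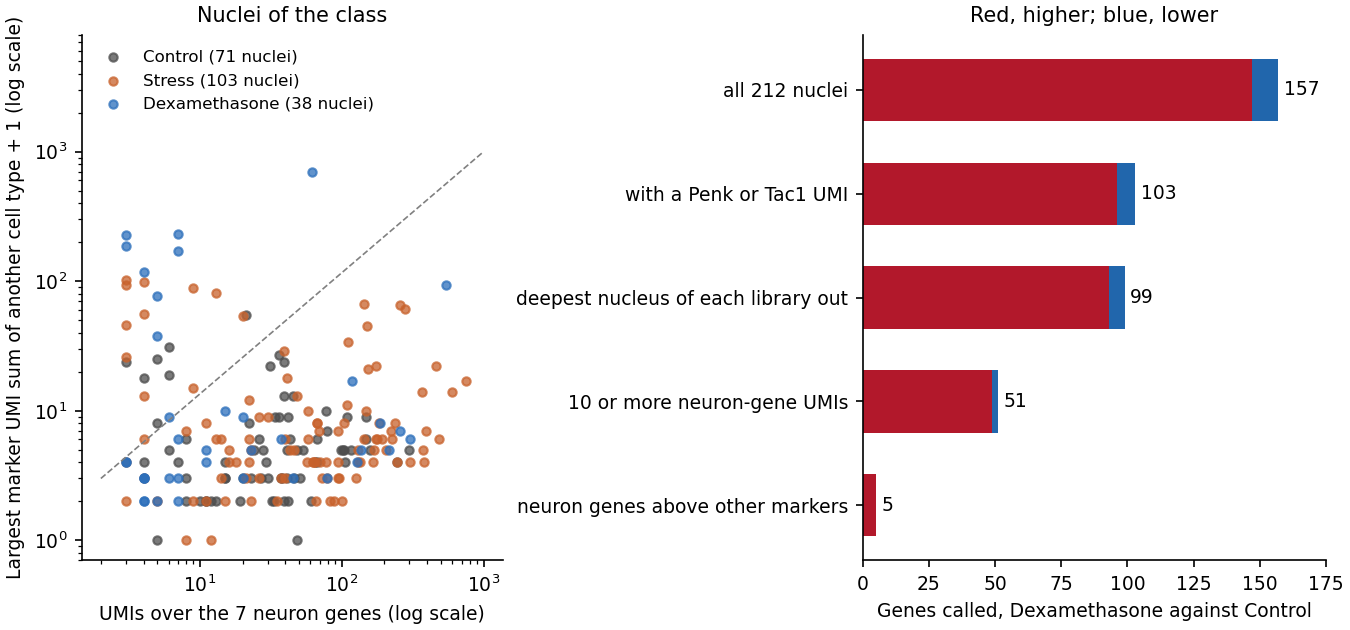
Left, each nucleus of the class by its UMIs over the 7 neuron genes and the largest marker sum of another cell type plus 1, both on log scales, with the dashed line where the sums are equal; right, genes called for Dexamethasone against Control under each choice of nuclei. Of the 31 nuclei on or above the line 11 are from Dexamethasone, and the calls go from 157 to 5.

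Of 36 listed glucocorticoid receptor targets 19 could be tested, against 5 with Stress and Control alone, so that most entered with the library where they were high, and 4 passed: Fkbp5, Zbtb16, Mt1 and Ccnd3. With 10 or more neuron-gene UMIs 2 of 12 passed, and among the nuclei led by neuron genes 0 of 8. Fkbp5, a co-chaperone that restrains the receptor, stood at 39.3 and 36.8 CPM in Control, 16.5, 72.9 and 42.1 under restraint and 326 with dexamethasone, well above every other library (3.06 ± 0.52, edgeR adjusted p = 0.00739). The deepest nucleus gave 57 of the 122 UMIs, and without it and its counterparts the value was 2.88 ± 0.61 (edgeR adjusted p = 0.0319). Among the 181 nuclei led by neuron genes Fkbp5 had 1.58 ± 0.61 (edgeR adjusted p = 0.591), with 8 and 5 UMIs in Control, 2, 31 and 19 under restraint and 25 with dexamethasone.

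Zbtb16, a zinc finger repressor induced by glucocorticoids, stood at 52.4 and 22.1 CPM in Control, 0 to 112 under restraint and 542 with dexamethasone (3.72 ± 0.70, edgeR adjusted p = 0.0122). It had 2.73 ± 0.65 without the deepest nuclei (edgeR adjusted p = 0.0576) and 2.54 ± 0.71 in the nuclei led by neuron genes (edgeR adjusted p = 0.332). Tsc22d3 did not pass, with 0 UMIs in both Control libraries, 2, 2 and 9 under restraint and 15 with dexamethasone, nor did Per1, with 2 and 1 in the controls, 0, 11 and 19 under restraint and 18 with dexamethasone. Nr3c1 had -0.39 ± 0.73 (edgeR adjusted p = 0.895).

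Tgfb2, a transforming growth factor beta ligand, was highest in the Dexamethasone library. Like Fkbp5, it failed the filter on low counts with Stress and Control alone, so both were tested only in fits that hold that library. It stood at 39.3 and 22.1 CPM in Control, 8.23 to 40.5 under restraint and 454 with dexamethasone (3.77 ± 0.49, edgeR adjusted p = 0.00211), in 11 nuclei of which the highest gave 43 of 170 UMIs. The value was 3.55 without the deepest nuclei (edgeR adjusted p = 0.00333), 3.40 with 10 or more neuron-gene UMIs (0.00775) and 3.02 ± 0.56 in the nuclei led by neuron genes (0.0615). Its receptor Tgfbr1 had 1.57 ± 0.71 (edgeR adjusted p = 0.366), and Tgfb2 was the 1 call among 17 tested genes of the pathway. In the cytokine and NF-kB list 3 of 8 passed, Nfkb1, Birc3 and Stat3; 262 of the 452 Nfkb1 UMIs in Dexamethasone came from 1 nucleus that had 5 neuron-gene UMIs and 76 glia marker UMIs.

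Eftud2, a splicing factor subunit, stood at 26.2 and 44.1 CPM in Control, 0, 24.3 and 20.1 under restraint and 572 with dexamethasone (4.06 ± 0.51 against Control, edgeR adjusted p = 0.00208). It also passed among the nuclei led by neuron genes (3.26 ± 0.55, edgeR adjusted p = 0.0465). Eftud2 too failed the filter on low counts with Stress and Control alone. Its gene (chromosome 11, 102838473 to 102880985, minus strand) begins 6.35 kb after the end of Gfap (102887336 to 102900912) on the same strand. In Dexamethasone 205 of its 214 UMIs were in the 8 nuclei with a Gfap UMI and 9 were in the other 30; the part of glial RNA or of the neighbouring gene in this call was not tested.

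Of the 10 lower genes none was on the cholinergic list. Rspo2, a Wnt agonist, stood at 153 and 154 CPM in Control, 41.2, 83.0 and 103 under restraint and 16.03 with dexamethasone, below every other library (-3.25 ± 0.58, edgeR adjusted p = 0.0102). It also passed with 10 or more neuron-gene UMIs (-2.93 ± 0.59, edgeR adjusted p = 0.0325). Galnt14 (-4.60 ± 0.78), Spock3 (-2.54 ± 0.57), Plppr5 (-2.51 ± 0.59) and Adamts2 (-2.63 ± 0.59) also fell, as did the F-box genes Fbxw24 and Fbxw15. Among the nuclei led by neuron genes none of these passed, with Galnt14 at an edgeR adjusted p of 0.0806 and Rspo2 at 0.229.

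Calb2 fell as well (-2.66 ± 0.60, edgeR adjusted p = 0.0338), but 37 of its 45 UMIs in Control 1 came from 1 nucleus, and without the deepest nuclei it had -0.85 (edgeR adjusted p = 0.683). The 13 nuclei with at least 10 Sst UMIs held 125 Calb2 UMIs, and none of these nuclei was in the Dexamethasone library. Their part in the fall was not tested. Epha5, an ephrin receptor of axon guidance, fell too (-1.72 ± 0.41, edgeR adjusted p = 0.0423). Chat (-0.59 ± 0.39, edgeR adjusted p = 0.610), Slc5a7 (-0.60 ± 0.43, 0.637) and Oprm1 (-0.34 ± 0.55, 0.879) did not pass, and of 6 tested cholinergic genes 1 lay above 0, with a median of -0.54. Among the nuclei led by neuron genes that median was 0.05 and Chat had 0.16 ± 0.36 (edgeR adjusted p = 0.968).

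Dexamethasone was also set directly against Stress in the same fit, which shares the Dexamethasone library with the comparison above. It called 145 of 6892 genes (2.10%), 142 higher (2.06%) and 3 lower (0.0435%). Eftud2 (4.92 ± 0.43, edgeR adjusted p = 0.000234), Tgfb2 (3.71 ± 0.39, 0.000719) and Fkbp5 (2.73 ± 0.41, 0.00398) were higher in Dexamethasone than in Stress, together with 9 of 10 smooth muscle markers. The 3 lower genes were Galnt14 (-3.39 ± 0.79), Zfp804b (-2.78 ± 0.51) and the neuronal RNA-binding protein gene Elavl2 (-2.05 ± 0.47). No Dexamethasone value of the 3 overlapped those of Stress. Of the 16 Zfp804b UMIs in Dexamethasone 14 came from 1 nucleus. None of the 3 was among the calls in the nuclei led by neuron genes.

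In the nuclei led by neuron genes 5 genes passed for Dexamethasone against Stress, among them Tgfb2 (2.64 ± 0.44, edgeR adjusted p = 0.0440) and Eftud2. Fkbp5 there had 1.35 ± 0.51 (edgeR adjusted p = 0.946), and 2.07 ± 0.46 without the deepest nuclei (edgeR adjusted p = 0.0537). The difference between the class and the other neurons in the response to dexamethasone was not tested.

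**Figure D5:**
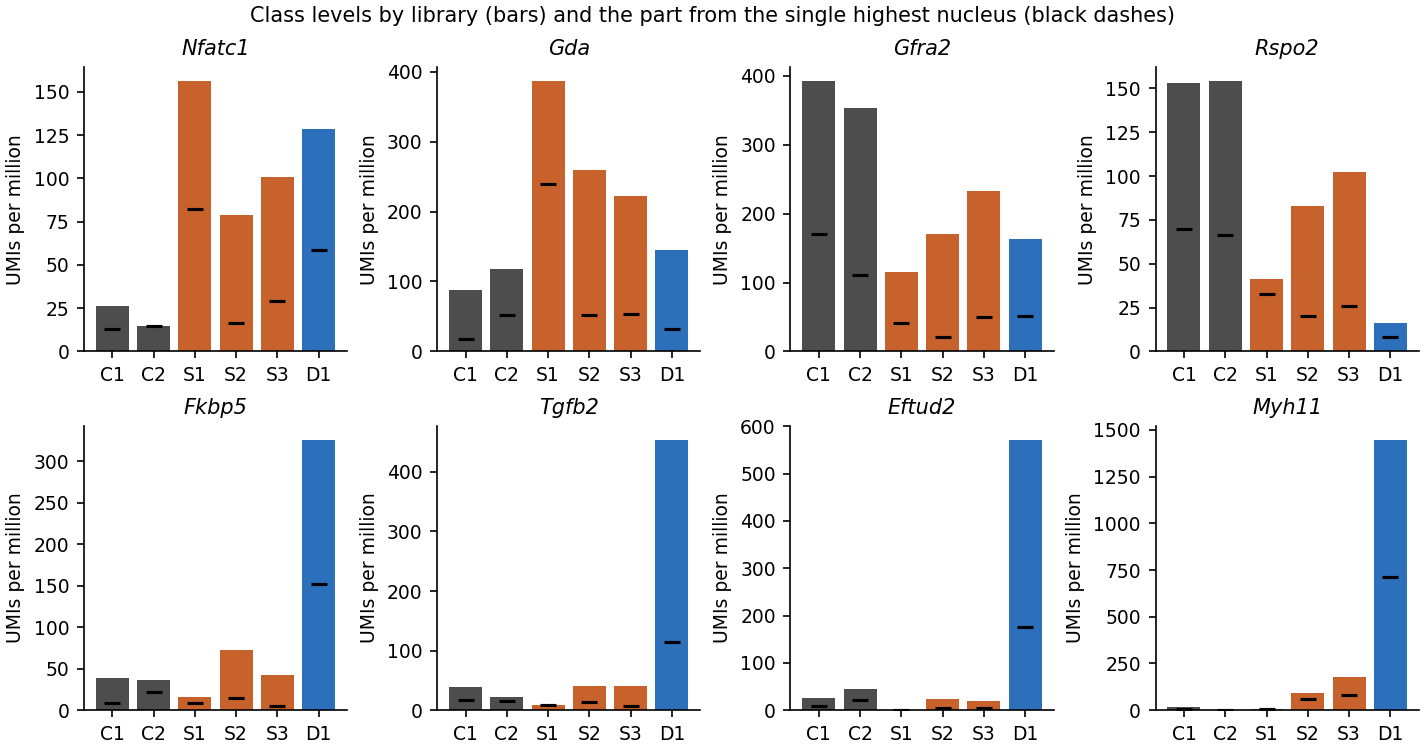
CPM of the class in each library (C, Control; S, Stress; D, Dexamethasone) for 8 genes, with a black dash at the part that the single highest nucleus supplied. Nfatc1 and Gda stand higher and Gfra2 lower in every Stress library than in Control without passing the test, the Gfra2 of Control 1 with 39 of 90 UMIs from 1 nucleus, Tgfb2 and Eftud2 stand apart in Dexamethasone with the highest nucleus at a minor part, and the highest nucleus gave 266 of the 542 Myh11 UMIs.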

How the data were processed

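The deposited counts came from Cell Ranger 4.0.0 (Control, Stress) and 5.0.1 (Dexamethasone), per the file headers; the submitters' processing notes name version 5 and mm10. The values are whole-number UMI counts per gene and barcode for 31053 genes, and the deposited barcode and gene lists accompany them. The 6 libraries held between 6057994 and 14838057 UMIs.

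Nuclei were selected by the rule given above, with thresholds of 300 genes, 5% mitochondrial UMIs, 3 neuron-gene UMIs and 2 list C UMIs. The nuclei and the gene lists were chosen with earlier results of these data known. UMIs were summed per library over the class and tested with edgeR 4.0.16 (filterByExpr, TMM, quasi-likelihood F-test, Benjamini-Hochberg threshold 0.05) in R 4.3.3. Stress against Control was fitted on those 5 libraries, and the Dexamethasone contrasts on all 6. The SE is the size of the log2 fold change divided by the square root of F. Levels (CPM) are UMIs per 1000000 UMIs of the nuclei concerned in a library. DESeq2 1.42.0 was an alternative. Shares were compared with an exact permutation test in scipy 1.17.1, and doublets were called with scrublet in scanpy 1.11.5 and kept. The scripts were tested on simulated data.

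The text names a preset list of genes; up to 8 in each direction of largest change past the threshold without overlap between groups, or the 5 of smallest p in each direction where fewer than 5 passed; up to 10 passing list members; and, against the other neurons, the 15 and 10 genes of most extreme mean ratio. Med27, Plcb1 and the other genes of smallest p in Stress come from it. Eftud2, Slc35f1 and Sst were singled out after their values were seen. Alternatives were other filters, limits, rules and libraries left out; 4 choices of nuclei were added after seeing the data. Intervals of the shares cover counting error only. The edgeR p-values measure the spread between libraries, which may share animals, and for Dexamethasone that spread is taken from the Control and Stress libraries.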

Additional observations from a re-analysis of the deposited data

Results flagged for a closer look

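For 2 genes the test of the difference between the stress effects in the class and in the other neurons, with the library as a block, passed the threshold. For Tph1 the log2 difference of effects (class minus other neurons) was 8.62 ± 1.20, and for Lmx1a 8.91 ± 1.23 (edgeR adjusted p = 0.0214 each). In the class Lmx1a had 0 and 8 UMIs in the controls and 0, 22 and 31 under restraint; in the other neurons it had 14 and 29 in the controls and 0 in all 3 Stress libraries. In the other neurons the Lmx1a UMIs of Control came from 3 nuclei in each library. All 5 class nuclei with Tph1 also had Lmx1a. Tac1, a rule gene, brought the Tph1 nuclei of Control and Stress into the class, and none of those outside it had a Tac1 UMI. The rule thus set the side each nucleus fell on, and the test cannot tell this from a stress effect in the class. The part of enterochromaffin RNA or cells in this difference was not tested.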

How the results depend on the processing

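No value that passed as reported changed sign, and no value of changed sign passed. Of 1804 values of single genes under the alternatives 90 changed sign, in 10 genes, so the directions of those values are not settled. Of the list medians for Dexamethasone against Control, those of cholinergic transmission (-0.54) and the TGF-beta pathway (1.06) were 0.05 and -0.02 where neuron genes led. For Stress against Control, 36 genes were called with no filter on low counts and 0 to 2 with 1 library left out, the 2 without Control 2. With the replicate number as a block 12 were called. Deviations of the same-numbered libraries from their group means correlated at -0.052 and -0.031. The 2 Control libraries deviate by equal and opposite amounts, so these values cannot decide whether the numbers pair the libraries.

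Calls for Dexamethasone against Control and against Stress, in that order, were 69 and 26 with DESeq2, 398 and 411 with no filter, 97 and 64 with UMIs thinned to equal totals, 245 and 252 at up to 10% mitochondrial UMIs, 93 and 66 under a stricter class rule, 51 and 53 with 10 neuron-gene UMIs, 5 and 5 where neuron genes led, and 99 and 73 without the deepest nuclei. Against Control, 103 were called with a Penk or Tac1 UMI; against Stress, 65 at 500 genes and 2% mitochondrial UMIs. With 1 library left out they ranged from 12 (Control 1) to 274 (Stress 1) and from 102 to 208; without Control 2 and Stress 3 the former was 32 and 238. Of the calls where neuron genes led, 5 of 5 and 4 of 5 were among the original calls.

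The 2 calls for the difference of stress effects became 13 with no filter and 0 with DESeq2, no library block, thinned UMIs, 500 genes and 2% mitochondrial UMIs, the stricter class rule, 10 neuron-gene UMIs, or neuron genes leading. They ranged from 0 (without Stress 1, 2 or 3) to 4 (without Control 2). Against the other neurons, 430 genes were higher and 530 lower in all libraries, and 407 in all after thinning. The share difference ran from 2.82 to 10.3 points, and from 4.60 to 6.30 with 1 library left out. The cause of these changes was not tested. Depth limits low genes most: Stress 1 had 121494 class UMIs in 13 nuclei.

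The log2 values that changed sign were as follows. Chat for Stress against Control had -0.26, but 0.21 at 500 genes and 2% mitochondrial UMIs. Slc5a7 for Stress against Control had 0.099, but -0.29 at 500 genes and 2% mitochondrial UMIs, and -0.32 to 0.61 with 1 library left out. Fos for Stress against Control had -0.062, but 0.14 at 500 genes and 2% mitochondrial UMIs, 0.56 without doublets, 0.43 with a Penk or Tac1 UMI, 0.14 where neuron genes led and 0.034 without the deepest nuclei, and -0.45 to 0.67 with 1 library left out. Oprm1 for Dexamethasone against Control had -0.34, but 0.015 after thinning, 0.24 at 500 genes and 2% mitochondrial UMIs and 0.40 where neuron genes led. Nr3c1 for Dexamethasone against Control had -0.39, but 0.15 at 500 genes and 2% mitochondrial UMIs. Fos for Dexamethasone against Control had 0.080, but -0.35 under the stricter class rule, -0.42 with 10 neuron-gene UMIs, -0.27 where neuron genes led and -0.032 without the deepest nuclei, and -0.32 to 0.82 with 1 library left out. Chat for Dexamethasone against Control had -0.59, but 0.16 where neuron genes led. Gfra2 for Dexamethasone against Stress had -0.11, but 0.30 after thinning, 0.093 under the stricter class rule, 0.096 with 10 neuron-gene UMIs, 0.19 with a Penk or Tac1 UMI, 0.33 where neuron genes led and 0.038 without the deepest nuclei, and -0.24 to 0.11 with 1 library left out. Nr4a3 for Dexamethasone against Stress had 0.24, but -0.64 under the stricter class rule, -1.27 with 10 neuron-gene UMIs, -0.50 with a Penk or Tac1 UMI and -1.16 where neuron genes led, and -0.094 to 1.72 with 1 library left out. Fos for Dexamethasone against Stress had 0.15, but -0.015 under the stricter class rule, -0.14 with 10 neuron-gene UMIs, -0.14 with a Penk or Tac1 UMI, -0.41 where neuron genes led and -0.045 without the deepest nuclei, and -0.066 to 0.50 with 1 library left out. Chat for Dexamethasone against Stress had -0.34, but 0.0027 with 10 neuron-gene UMIs and 0.38 where neuron genes led. Fkbp5 for the difference of stress effects had -0.021, but 0.043 with no filter, 0.0030 with no library block, 0.24 at 500 genes and 2% mitochondrial UMIs, 0.033 at up to 10% mitochondrial UMIs, 0.099 with a Penk or Tac1 UMI, 0.10 where neuron genes led and 0.44 without the deepest nuclei, and -0.45 to 0.17 with 1 library left out. Chat for the difference of stress effects had -0.0027, but 0.065 with no filter, 0.42 after thinning, 0.72 at 500 genes and 2% mitochondrial UMIs, 0.0024 at up to 10% mitochondrial UMIs, 0.50 under the stricter class rule, 0.098 with a Penk or Tac1 UMI, 0.014 where neuron genes led and 0.051 without the deepest nuclei, and -0.18 to 0.080 with 1 library left out. Oprm1 for the difference of stress effects had -0.021, but 0.048 with no filter, 0.13 with no library block, 0.19 at up to 10% mitochondrial UMIs, 0.048 without doublets and 0.044 without the deepest nuclei, and -0.59 to 0.43 with 1 library left out. Fos for the difference of stress effects had -0.050, but 0.011 with no filter, 0.55 without doublets, 0.51 with a Penk or Tac1 UMI and 0.44 where neuron genes led, and -0.42 to 0.72 with 1 library left out. Gfra2 for the difference of stress effects had 0.13, but -0.013 after thinning and -0.23 at up to 10% mitochondrial UMIs, and -0.25 to 0.66 with 1 library left out. Nr3c1 for the difference of stress effects had -0.20, but 0.12 at 500 genes and 2% mitochondrial UMIs, and -0.71 to 0.00056 with 1 library left out. Arntl for the difference of stress effects had -0.061, but 0.43 at up to 10% mitochondrial UMIs, 0.24 without doublets, 0.50 under the stricter class rule, 0.40 with a Penk or Tac1 UMI and 0.44 where neuron genes led, and -0.47 to 0.15 with 1 library left out. Cpm for the difference of stress effects had -4.03, but -4.15 to 2.17 with 1 library left out, the positive value without Control 1.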

Other observations

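In the other neurons, Dexamethasone against Control gave Fkbp5 a log2 fold change of 2.62 ± 0.32 (edgeR adjusted p = 0.00143) and Eftud2 0.96 ± 0.44 (0.350). Sterol synthesis genes of the class had no call for Dexamethasone against Control over 15 tested genes, with a median log2 fold change of -0.997 and 1 gene above 0. Of all 6892 genes 3344 lay above 0, with a median of -0.0255. Genes of synaptic vesicles and release (5 of 26 above 0, median -0.48) and sodium and calcium channels (4 of 20, -0.66) also lay mostly below 0. Heat shock genes lay mostly above it (11 of 13, 0.40).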
